A study of Mus musculus with 36 samples.

Results

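The 34 genes described here encode collagen chains, the hydroxylases that modify collagen, the enzymes that cross-link it, and proteins that surround or remodel it. They were taken by symbol from a table of 36066 genes, each symbol matching 1 row. By role they are 5 fibrillar collagen chains, 4 basement membrane and network collagens, 4 type VI and fibril-associated collagens, 4 prolyl 4-hydroxylase subunits, 3 lysyl hydroxylases, 3 lysyl oxidases, 6 chaperone and matrix proteins, and 5 genes of matrix remodeling and TGF-beta.

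RNA from the whole liver of 36 fasted mice was sequenced at the age of 4 months, in 12 groups of 3 mice, 6 treatments in each sex. Gulo encodes the last enzyme of ascorbate synthesis, so a Gulo-/- mouse depends on ascorbate in its drinking water. From weaning on, the water of GL40 mice held 0.4% ascorbate (weight per volume), that of GL05 mice 0.05% and that of GL01 mice 0.01%. GL00 mice drank 0.4% until 3 months of age and then none for 4 weeks. GLR40 mice drank 0.4% until 2 months, none for the next month, and 0.4% again until 4 months. Wild-type mice (WT00, Gulo+/+) received no ascorbate. F or M before a group name gives the sex.

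Collagen chains are hydroxylated on proline and lysine in the endoplasmic reticulum by enzymes that need iron, 2-oxoglutarate and ascorbate, and hydroxyproline keeps the triple helix stable at body temperature. In liver, hepatic stellate cells and portal fibroblasts make most fibrillar collagen, endothelial cells contribute basement membrane chains, and hepatocytes release soluble fibronectin into plasma. Loss of hydroxylation is an event on the protein, whereas the values below are transcript levels.

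Levels are given in TPM, a transcript level scaled for length and for the library, so that each of the 36 livers sums to 1000000. Differences are log2 fold changes of TPM + 1 from limma, and a gene counted as changed at a Benjamini-Hochberg adjusted p under 0.05 over all genes tested. On this scale the change of a gene near 1 TPM is understated. Gulo read 225 to 269 TPM in FWT00 and 144 to 164 TPM in MWT00, against 16.4 to 52.2 TPM over all Gulo-/- mice, and the Y-linked Ddx3y separated the 18 females (at most 0.875 TPM) from the 18 males (at least 15.1 TPM). The male MGLR40-2831 is titled as female but is male by its name, its sex label and Ddx3y. Hepatocyte markers summed to 69160 to 96980 TPM. Marker sums of other cells set 4 females apart. FGL40-2695 carried 13947 TPM of pancreatic acinar markers, where no other mouse passed 79.3 TPM. FGLR40-2717 and FWT00-2643 carried 24.3 and 31.8 TPM of mesothelial markers (at most 7.72 TPM elsewhere) and 57.6 and 52.7 TPM of smooth muscle markers (at most 20.4 TPM elsewhere). FGL00-2788 carried 134 TPM of sinusoidal endothelial markers, where the other 17 females carried 245 to 360.0 TPM. It also had the lowest stellate cell marker sum of the females, 125 TPM, where the next lowest was 149.7 TPM. Of the FGL00 mice it had the lowest Kupffer cell sum (499 against 802 and 766 TPM) and the highest hepatocyte sum (93961 TPM).

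All 34 genes passed the filter on low values in every comparison. Their levels spanned a wide range, with 4 means at or above 100 TPM, 7 from 10 to 100 TPM, 18 from 1 to 10 TPM and 5 under 1 TPM. The most abundant were P4hb (protein disulfide isomerase, the beta subunit of prolyl 4-hydroxylase) at 499 to 799 TPM, Fn1 (fibronectin) at 328 to 1059 TPM, Col18a1 (the collagen from which endostatin is cut) at 288 to 421 TPM and Dcn (decorin, a proteoglycan on collagen fibrils) at 63.4 to 206 TPM. The chains of the main fibrillar collagens were far lower, with a median of 1.49 TPM for Col1a1, 4.01 TPM for Col1a2 and 7.64 TPM for Col3a1. At the bottom were P4ha3, Lox, Timp1, Plod2 and Loxl1, of which P4ha3, Lox, Timp1 and Plod2 stayed under 1 TPM in all 36 mice. Timp1 (an inhibitor of matrix metalloproteinases) was at 0 in 5 mice and P4ha3 in 1. Together the 34 genes made up 0.147% to 0.245% of the TPM of a liver.

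**Figure D1:**
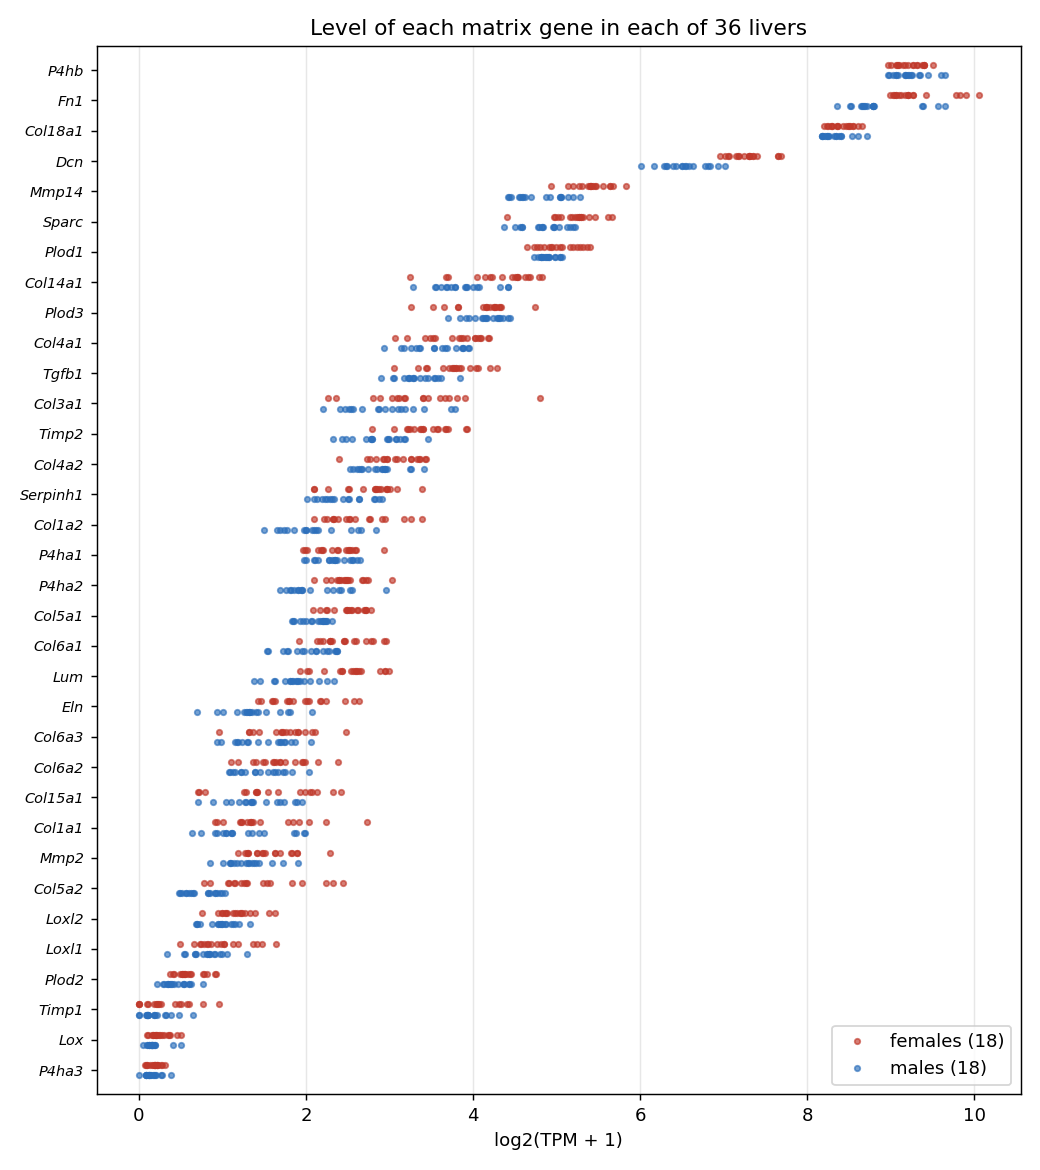
Level of each of the 34 genes, as log2(TPM + 1), in each liver, with 18 females in red and 18 males in blue and genes in order of their mean. P4hb, Fn1, Col18a1 and Dcn lie far above the fibrillar collagens, and P4ha3, Lox, Timp1 and Plod2 lie near 0.

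Withdrawal of ascorbate for 4 weeks was followed by a rise of Fn1 and a fall of Col15a1 in both sexes, and no fibrillar collagen chain passed the test in either. In females 6 of the 34 genes passed, 2 higher and 4 lower in FGL00 than in FGL40, where 23.2% of all 18050 genes tested passed. In males 6 passed, 5 higher and 1 lower, where 12.3% of all genes tested passed. All genes gave 1726 higher and 2469 lower in FGL00, and 1740 higher and 432 lower in MGL00. With median-ratio scaling all genes gave 2214 and 2327 in females, and 721 and 909 in males. Without FGL00-2788 and the 3 females with pancreatic or mesothelial transcripts, 3 genes passed in females (Fn1, Col15a1 and Plod1), and without FGL40-2694 or FGL40-2696 alone 3 or 2. With median-ratio scaling 3 were higher and 4 lower in females, as Mmp14 was gained, and 4 higher and 2 lower in males, as Col18a1 was lost and Col14a1 was gained as lower. The median log2 fold change of the 34 genes was -0.10 in females and 0.11 in males, beside -0.02 and 0.07 over all genes.

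Fn1 read 1059, 958 and 905 TPM in the 3 FGL00 mice and 573, 546 and 615 TPM in FGL40, a log2 fold change of 0.75 (SE 0.12, adjusted p = 0.000525). In males it read 661, 800.3 and 759 TPM in MGL00 and 418, 407 and 399 TPM in MGL40, a log2 fold change of 0.85 (SE 0.18, adjusted p = 0.00740). The groups did not overlap in either sex, and both calls held with each of the 6 mice left out in turn (0.69 to 0.80 in females, 0.80 to 0.93 in males).

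Col15a1, a basement membrane zone collagen with a chondroitin sulfate chain, read 0.651, 1.39 and 0.637 TPM in FGL00 and 4.00, 1.43 and 2.96 TPM in FGL40, with a log2 fold change of -0.97 (SE 0.26, adjusted p = 0.0154). In males it read 0.850, 1.05 and 0.628 TPM in MGL00 and 1.87, 2.16 and 2.35 TPM in MGL40, with a log2 fold change of -0.76 (SE 0.21, adjusted p = 0.0251). All 6 GL00 mice lay at or below 1.39 TPM and all 6 GL40 mice at or above 1.43 TPM. The call was lost without any 1 of FGL00-2788, FGL00-2791, FGL40-2694 and FGL40-2696 in females (-1.26 to -0.74, adjusted p up to 0.0845) and without any 1 of 5 of the 6 males, MGL00-2784 being the exception (-0.85 to -0.68, adjusted p up to 0.0979). Over both sexes together the fold change was -0.87 (SE 0.17, adjusted p = 0.000460), and it was called with each of the 12 mice left out. The other 5 male calls held with each male left out.

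**Figure D2:**
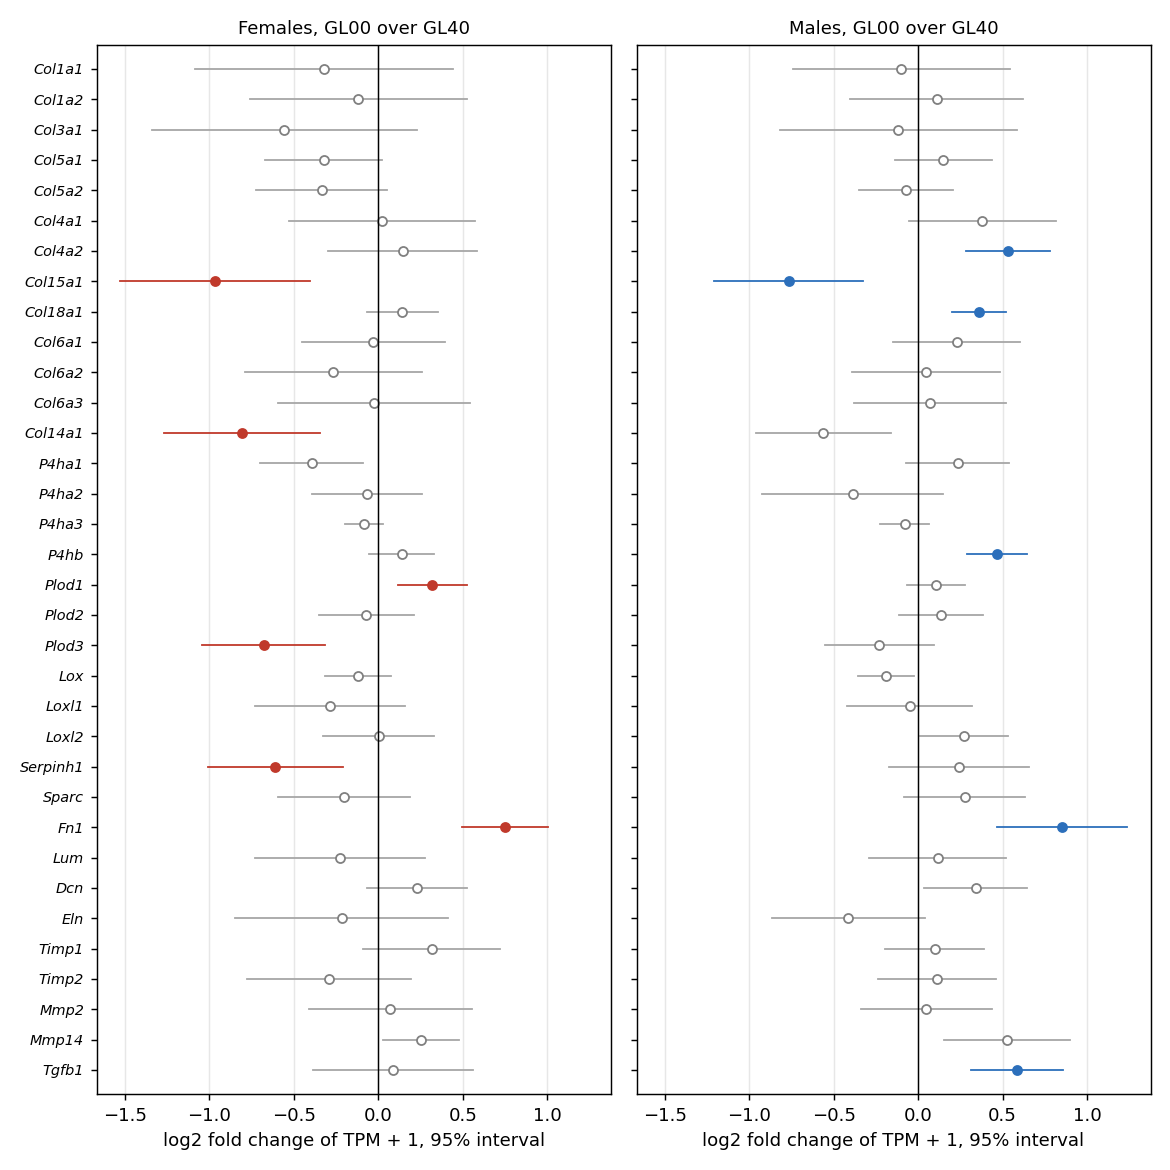
Log2 fold change of TPM + 1 between GL00 and GL40 in females (left) and males (right) for the 34 genes, with 95% intervals. Filled points passed the test. Fn1 lies right of 0 and Col15a1 left of 0 in both panels, and Col14a1, Plod3 and Serpinh1 lie left of 0 in females with filled points.

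The other basement membrane chains that passed did so in males. Col4a2, which with Col4a1 forms the type IV network, read 9.67, 8.48 and 8.59 TPM in MGL00 and 5.70, 5.23 and 6.68 TPM in MGL40, a log2 fold change of 0.53 (SE 0.12, adjusted p = 0.00907) with no overlap between groups. In females it read 4.27, 9.09 and 9.27 TPM in FGL00 and 6.87, 5.80 and 6.56 TPM in FGL40, a fold change of 0.14 (adjusted p = 0.675). The low FGL00 value was mouse 2788, the mouse with 134 TPM of endothelial and 125 TPM of stellate cell markers. Its neighbour Col4a1 read 7.41, 16.1 and 17.2 TPM in FGL00, again lowest in mouse 2788, and 14.5, 13.7 and 12.9 TPM in MGL00 against 8.02, 11.9 and 11.4 TPM in MGL40, with fold changes of 0.02 (adjusted p = 0.966) in females and 0.38 (adjusted p = 0.250) in males. Col18a1 read 371, 389 and 421 TPM in MGL00 and 297, 302 and 319 TPM in MGL40 (0.36, SE 0.07, adjusted p = 0.00640), and 372, 401 and 374 TPM in FGL00 against 327, 361 and 352 TPM in FGL40 (0.14, adjusted p = 0.340). The interaction of sex with withdrawal was -0.39 (adjusted p = 0.330) for Col4a2 and -0.22 (adjusted p = 0.257) for Col18a1, so a difference between the sexes was not shown for either.

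Of the type VI and fibril-associated chains, only Col14a1 passed, and only in females. Col14a1, which decorates the surface of collagen fibrils, read 8.50, 12.02 and 15.5 TPM in FGL00 and 22.3, 17.7 and 24.2 TPM in FGL40, a log2 fold change of -0.81 (SE 0.22, adjusted p = 0.0139). In males the 3 values were 11.2, 10.6 and 8.71 TPM in MGL00 and 14.1, 12.7 and 20.4 TPM in MGL40, a fold change of -0.56 (adjusted p = 0.0638), and the interaction was -0.25 (adjusted p = 0.664). The groups did not overlap in either sex. The female call was lost without FGL00-2788 or FGL40-2696 (adjusted p up to 0.0725). The 3 type VI chains Col6a1, Col6a2 and Col6a3 had fold changes of -0.03, -0.27 and -0.03 in females and 0.23, 0.05 and 0.07 in males.

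The 5 fibrillar chains had fold changes from -0.56 to -0.12 in females and from -0.12 to 0.15 in males, with 95% intervals reaching from -1.34 to 0.53 and from -0.82 to 0.62. Col1a1 read 1.01, 1.36 and 1.45 TPM in FGL00 and 1.59, 2.44 and 1.53 TPM in FGL40. Col3a1 read 5.98, 6.38 and 7.68 TPM in FGL00 and 11.7, 12.1 and 7.54 TPM in FGL40, with an interval of -1.34 to 0.23 around -0.56. In males Col3a1 read 7.83, 7.61 and 4.84 TPM in MGL00 and 6.30, 6.31 and 9.63 TPM in MGL40, with an interval of -0.82 to 0.58. For Col3a1 in females the interval reached past a 2-fold fall and included a rise, so no change was detectable with 3 mice a group. In whole liver, fewer cells of a type and less RNA per cell cannot be told apart.

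Of the prolyl 4-hydroxylase subunits only P4hb passed, in males. It rose from 612, 501 and 534 TPM in MGL40 to 698, 775 and 799 TPM in MGL00, a log2 fold change of 0.47 (SE 0.08, adjusted p = 0.00256) with no overlap. In females it read 676, 675 and 615 TPM in FGL00 and 634, 566 and 587 TPM in FGL40, a fold change of 0.14 (adjusted p = 0.317), and the interaction was -0.33 (adjusted p = 0.0683). P4ha1, a catalytic subunit, read 2.92, 3.44 and 3.52 TPM in FGL00 and 4.79, 4.88 and 4.24 TPM in FGL40, which did not overlap (-0.39, adjusted p = 0.0583). In males it read 5.11, 4.76 and 4.47 TPM in MGL00 and 4.89, 2.95 and 4.09 TPM in MGL40 (0.23, adjusted p = 0.321). P4ha2 and P4ha3, the other catalytic subunits, had fold changes of -0.07 and -0.08 in females and -0.39 and -0.08 in males, none of them past the test.

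The lysyl hydroxylases split in females. Plod1 read 34.7, 38.0 and 38.9 TPM in FGL00 and 29.1, 32.0 and 27.8 TPM in FGL40, a log2 fold change of 0.32 (SE 0.10, adjusted p = 0.0249). Plod3, which also glycosylates hydroxylysine, read 8.57, 11.6 and 13.2 TPM in FGL00 and 18.4, 16.8 and 19.2 TPM in FGL40, a fold change of -0.68 (SE 0.17, adjusted p = 0.00966). Neither pair of groups overlapped, and the higher gene and the lower gene belong to the same family. Plod2, the hydroxylase of the collagen telopeptides, was under 1 TPM throughout and had a fold change of -0.07 (adjusted p = 0.755). In males the 3 genes had fold changes of 0.11, 0.14 and -0.23, none past the test, and the interaction was 0.21 (adjusted p = 0.279) for Plod1 and -0.45 (adjusted p = 0.229) for Plod3. The Plod1 call was lost without any 1 of FGL00-2790, FGL00-2791, FGL40-2694 and FGL40-2696 (adjusted p up to 0.0961), and that of Plod3 without FGL00-2788 (adjusted p = 0.0520).

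Serpinh1, the chaperone HSP47 that binds procollagen, read 3.29, 3.29 and 5.43 TPM in FGL00 and 6.82, 6.17 and 6.48 TPM in FGL40, a fall with a log2 fold change of -0.61 (SE 0.19, adjusted p = 0.0288). In males it read 6.06, 6.55 and 5.22 TPM in MGL00 and 6.09, 3.56 and 5.21 TPM in MGL40 (0.24, adjusted p = 0.468). All 3 FGL00 mice lay below all 3 FGL40 mice, whereas the male groups overlapped. The female call was lost without any 1 of 5 of the 6 mice (adjusted p up to 0.109), FGL00-2791 being the exception.

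P4ha1 and Serpinh1 were the only 2 of the 34 genes for which the withdrawal difference itself differed between the sexes, where 13.6% of all 17881 genes tested passed that interaction. Over all genes 426 passed with a positive and 2002 with a negative value. The female fold change was below the male one by 0.63 on the log2 scale for P4ha1 (SE 0.20, adjusted p = 0.0375) and by 0.85 for Serpinh1 (SE 0.28, adjusted p = 0.0413). Both calls were lost with no filter on low values and under median-ratio scaling, where Plod1 was called instead with 0.40, and each was lost without any 1 of several mice. For P4ha1 these were 7 of 12, all but FGL00-2790, FGL00-2791, FGL40-2696, MGL00-2787 and MGL40-2690 (adjusted p up to 0.131). For Serpinh1 they were 9 of 12, all but FGL00-2791, MGL00-2787 and MGL40-2690 (adjusted p up to 0.131).

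The start regions of these 2 genes and of P4hb and Col15a1 are shown as examples. P4ha1 and Serpinh1 passed the interaction, P4hb passed in males, and Col15a1 fell in both sexes. Each run is the 250 bases before the RefSeq start, 5′ to 3′, on build GRCm38.p6, an older build than the authors' annotation. Capitals mark ACGTG and CCAAT on either strand. ACGTG is 1 form of the core that hypoxia-inducible factors bind, whose own hydroxylases also use ascorbate. The form GCGTG was not marked or counted. ACGTG was in 9 of the 22 members with an entry and in 16.6% of all 32851 windows, several of which can belong to 1 gene, and CCAAT was in 9 of 22 and 33.8%. The motifs do not overlap each other in these 4 windows. P4ha1, P4hb and Serpinh1 hold ACGTG, and Col15a1 holds neither motif. ACGTG was also in windows of Col1a2, Col5a1, P4ha2 and Timp1, which like P4ha1 were not called between GL00 and GL40. Plod3, called in females, and Mmp14, called over both sexes, held it too. It was absent from the windows of Plod1, Col4a2, Col18a1 and Tgfb1, which were called. A relation of the motifs to the calls was not tested.
P4ha1, chr10:59323046-59323295, plus strand: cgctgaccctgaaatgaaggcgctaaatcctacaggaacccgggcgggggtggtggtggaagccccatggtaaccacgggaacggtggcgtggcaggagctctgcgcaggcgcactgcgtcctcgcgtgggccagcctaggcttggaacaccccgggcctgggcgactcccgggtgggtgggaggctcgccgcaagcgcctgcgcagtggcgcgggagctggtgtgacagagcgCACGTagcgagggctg
Serpinh1, chr7:99353240-99353489, minus strand: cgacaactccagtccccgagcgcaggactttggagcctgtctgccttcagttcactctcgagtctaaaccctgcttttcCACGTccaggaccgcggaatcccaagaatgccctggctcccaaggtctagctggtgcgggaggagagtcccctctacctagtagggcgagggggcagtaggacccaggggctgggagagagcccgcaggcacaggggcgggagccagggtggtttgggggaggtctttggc
P4hb, chr11:120573254-120573503, minus strand: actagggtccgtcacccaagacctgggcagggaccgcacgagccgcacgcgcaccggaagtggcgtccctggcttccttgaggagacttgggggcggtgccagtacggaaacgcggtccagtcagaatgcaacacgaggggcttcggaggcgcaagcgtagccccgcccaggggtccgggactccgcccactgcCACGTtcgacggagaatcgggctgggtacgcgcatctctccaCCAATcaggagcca
Col15a1, chr4:47207762-47208011, plus strand: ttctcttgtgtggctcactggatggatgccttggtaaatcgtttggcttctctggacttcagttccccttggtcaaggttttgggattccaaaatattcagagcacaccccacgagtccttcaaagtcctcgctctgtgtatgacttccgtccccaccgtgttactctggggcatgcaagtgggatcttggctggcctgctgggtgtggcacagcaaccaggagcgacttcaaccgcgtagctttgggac

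**Figure D3:**
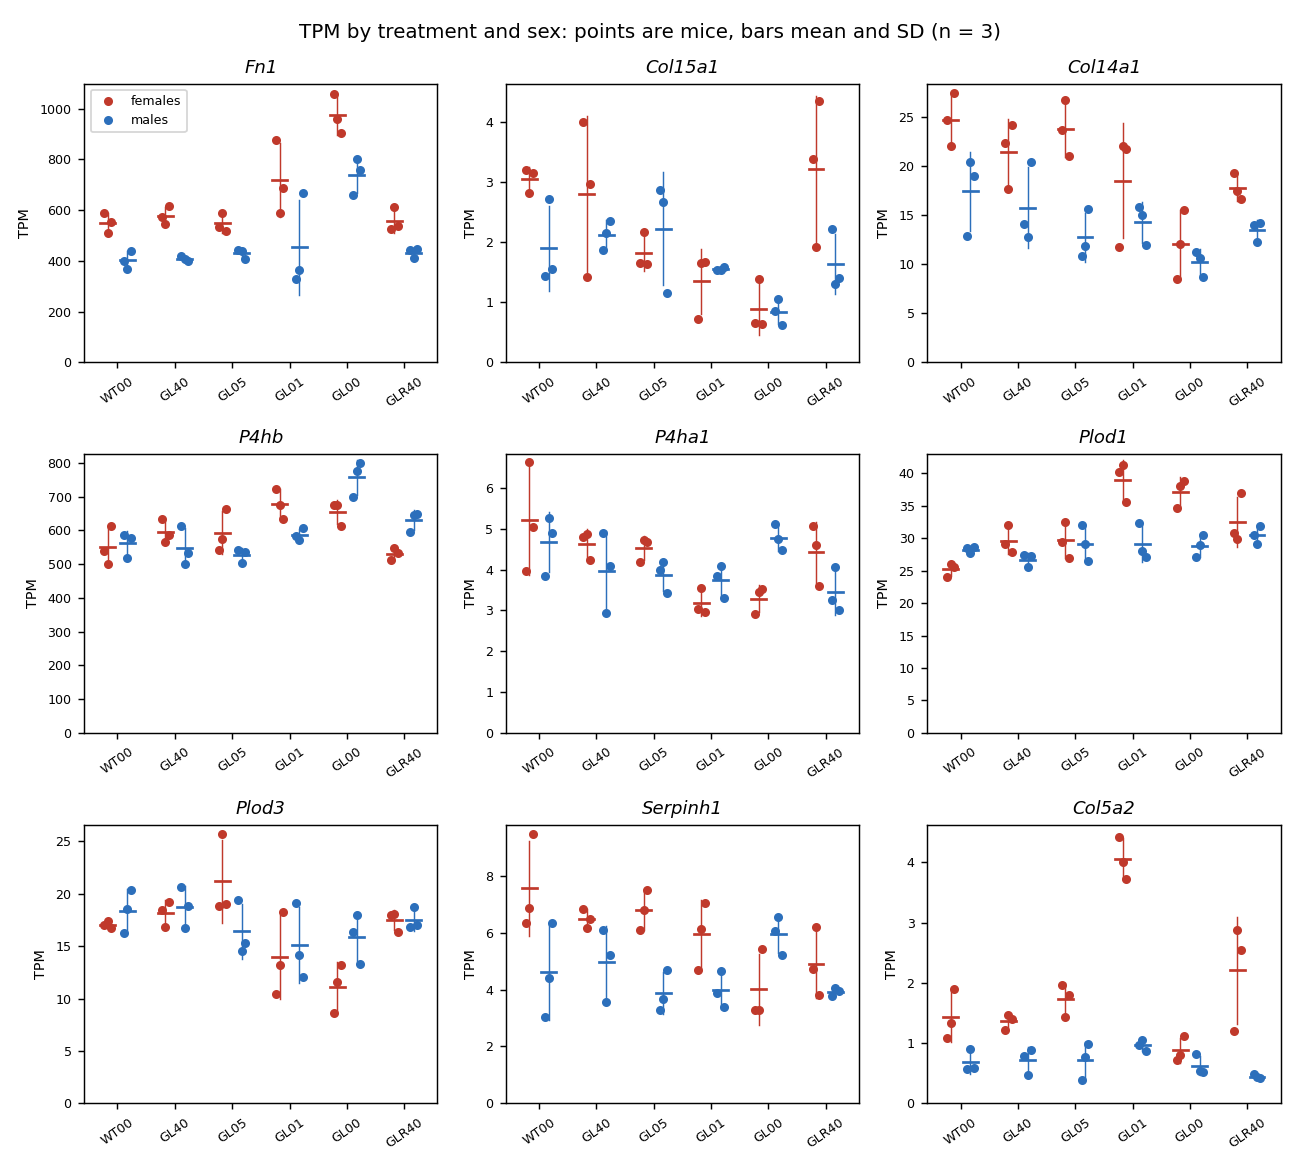
TPM of 9 genes by treatment, females in red and males in blue, with each mouse as a point and the mean and SD (n = 3) as bars. The group mean of Fn1 is highest in GL00 in both sexes, that of Col15a1 is lowest there, that of P4hb is highest in MGL00, and Col5a2 is near 4 TPM only in FGL01.

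Of the remaining matrix genes only Tgfb1 passed within a sex, in males. Tgfb1, the cytokine that drives stellate cells to make matrix, read 13.3, 10.6 and 10.6 TPM in MGL00 and 7.27, 6.43 and 8.31 TPM in MGL40, a log2 fold change of 0.59 (SE 0.13, adjusted p = 0.00856) with no overlap. In females it read 7.32, 14.6 and 17.4 TPM in FGL00, lowest in mouse 2788, and 9.88, 12.6 and 12.5 TPM in FGL40 (0.09, adjusted p = 0.829). Mmp14, the membrane-type protease that activates Mmp2, read 41.4, 45.9 and 41.5 TPM in FGL00 and 35.7, 37.7 and 34.2 TPM in FGL40 (0.25, adjusted p = 0.0998), and 32.1, 32.0 and 35.6 TPM in MGL00 and 20.6, 24.8 and 23.1 TPM in MGL40 (0.52, adjusted p = 0.0640). The groups did not overlap in either sex, and over both sexes Mmp14 passed with 0.39 (SE 0.11, adjusted p = 0.00673).

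Dcn was higher in the contrast of both sexes (0.28, SE 0.10, adjusted p = 0.0405). It read 124, 162 and 200.1 TPM in FGL00, lowest in mouse 2788, against 143, 133 and 132 TPM in FGL40, and 111, 94.8 and 128 TPM in MGL00 against 79.0, 89.8 and 92.9 TPM in MGL40, so that the groups overlapped in females and not in males. The other matrix proteins Sparc, Lum and Eln had fold changes of -0.20, -0.23 and -0.22 in females and 0.28, 0.12 and -0.41 in males. Timp1, Timp2 and Mmp2 had 0.32, -0.29 and 0.07 in females and 0.10, 0.11 and 0.05 in males. The lysyl oxidases Lox, Loxl1 and Loxl2, which cross-link collagen, had fold changes from -0.28 to 0.00 in females and from -0.19 to 0.27 in males, and none of these 9 genes passed in either sex.

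With both sexes in 1 contrast, 10 of the 34 genes passed between GL00 and GL40, 7 higher and 3 lower, where 26.9% of all genes tested passed. The higher genes were Fn1, Mmp14, Col4a2, P4hb, Dcn, Col18a1 and Plod1, from 0.21 for Plod1 to 0.80 for Fn1. The lower genes were Col15a1, Col14a1 (-0.68) and Plod3 (-0.45). With median-ratio scaling 9 passed, 5 higher and 4 lower, as Col4a2 and Dcn were lost and Lox was gained. All genes gave 2791 higher and 2016 lower, and 2435 and 2584 with this scaling. Col4a2 and Dcn were also each lost without any 1 of 8 of the 12 mice, FGL00-2788, FGL40-2694, MGL00-2784 and MGL40-2719 being the exceptions (adjusted p up to 0.133 and 0.152).

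Marker levels of other cells differed between these groups. In FGL00 the erythroid markers summed to 1933 to 3428 TPM against 627 to 753 TPM in FGL40, and the neutrophil markers to 44.2 to 85.8 against 10.9 to 12.8 TPM. All 5 tested markers of each list were higher in FGL00, and 4 of 11 sinusoidal endothelial markers were lower and 1 was higher. In MGL00, 8 of 12 Kupffer cell markers were higher than in MGL40, with sums of 461 to 556 against 290.2 to 384 TPM. Stellate cell markers summed to 125 to 198 TPM in FGL00 and 149.7 to 174 TPM in FGL40, and to 119 to 145 and 104.1 to 118 TPM in males, with 1 of 17 markers higher and 2 lower in females and 3 higher in males. Over all genes 23.2% passed in females and 12.3% in males. The part of these cells in the results was not tested.

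Lifelong 0.01% ascorbate was compared with 0.4% in each sex, and the difference between the sexes was not tested. Between FGL01 and FGL40, 5 of the 34 genes passed, 4 higher and 1 lower, where 19.9% of all genes passed, and between MGL01 and MGL40 none passed, where 3.43% of all genes passed and 4 of the 34 had an unadjusted p under 0.05. No alternative called any of the 34 in MGL01. Col5a2, a minor chain of type V collagen, read 4.42, 4.01 and 3.72 TPM in FGL01 against 1.22, 1.46 and 1.40 TPM in FGL40, a log2 fold change of 1.10 (SE 0.18, adjusted p = 0.000972), and no mouse of another group passed 2.88 TPM. In MGL01 it read 0.967, 1.05 and 0.874 TPM against 0.782, 0.475 and 0.885 TPM in MGL40 (0.20, adjusted p = 0.443). Its partner chain Col5a1 read 3.23, 4.84 and 5.60 TPM in FGL01 and 4.58, 5.58 and 5.84 TPM in FGL40 (-0.21, adjusted p = 0.409), and Col3a1, the adjacent gene on the chromosome, read 3.82, 10.04 and 9.61 TPM in FGL01 (-0.44, adjusted p = 0.438).

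Plod1 was also higher in FGL01, at 40.1, 41.4 and 35.6 TPM against 29.1, 32.0 and 27.8 TPM in FGL40 (0.39, SE 0.10, adjusted p = 0.0111). Mmp14 read 55.8, 50.3 and 48.9 TPM in FGL01, above all 3 FGL40 mice (0.51, SE 0.11, adjusted p = 0.00381), and Dcn read 206, 200.2 and 167 TPM against 143, 133 and 132 TPM (0.49, SE 0.14, adjusted p = 0.0223). P4ha1 was lower in FGL01, at 3.03, 3.56 and 2.96 TPM (-0.43, SE 0.14, adjusted p = 0.0444), within or near its range in FGL00. Col5a2, Plod1 and Mmp14 were called with each mouse left out, Dcn was lost without any 1 of FGL01-2722, FGL01-2723, FGL40-2695 and FGL40-2696 (adjusted p up to 0.0750), and P4ha1 without any 1 of the 6 mice (adjusted p up to 0.119). With median-ratio scaling 4 genes passed, 2 higher and 2 lower, with Plod1 and Dcn lost and Plod3 gained as lower (all genes: 1357 higher and 1775 lower, beside 2584 and 1008 without this scaling). The count was 3 without FGL01-2722 or FGL40-2696, and 11 with array weights, which weigh mice by their spread.

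Marker sums also differed between FGL01 and FGL40. Kupffer cell markers summed to 709 to 943 TPM in FGL01 and 537 to 595 TPM in FGL40, with 5 of 12 markers higher and none lower. Stellate cell markers summed to 179 to 189.6 and 149.7 to 174 TPM, with 2 of 17 higher, and sinusoidal endothelial markers to 303 to 360.0 and 288 to 302 TPM, with 1 of 11 higher. None of these 3 sums overlapped between the groups. Over all genes 19.9% passed, 2584 higher and 1008 lower. Sums of portal and capsular fibroblast markers (45.2 to 66.2 and 41.8 to 74.6 TPM) did overlap. So did those of activated stellate cell and myofibroblast markers (33.3 to 79.6 and 57.3 to 80.3 TPM). The part of these cells in the rises of Col5a2, Plod1, Mmp14 and Dcn was not tested.

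Fn1 was uneven within the 0.01% groups. In FGL01 it read 877, 590.0 and 687 TPM, highest in mouse 2722, and in MGL01 328, 363 and 667 TPM, highest in mouse 2713, where MGL40 read 418, 407 and 399 TPM. The fold changes over GL40 were 0.29 (adjusted p = 0.0985) in females and 0.08 (adjusted p = 0.869) in males. Mouse 2713 also had the highest Mmp14 of MGL01, at 37.8 TPM where the others had 21.0 and 22.4 TPM. In both sexes together 10 genes passed between GL01 and GL40, 8 higher and 2 lower, where 25.9% of all genes passed. With median-ratio scaling 4 passed, 1 higher and 3 lower, and without mouse 2713 Mmp14 was not called (adjusted p = 0.0606). Col5a2, Plod1 and Dcn were called with each of the 12 mice left out, and the count was 5 or 6 without any 1 of 9 of them, FGL01-2724, FGL40-2695 and MGL40-2719 being the exceptions.

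No gene of the 34 passed between GL05 and GL40, between GLR40 and GL40, or between GL40 and wild type, in limma or under any alternative except array weights, which called 1 in FGLR40. Between GL05 and GL40 the share of all genes called was 0% in females, where 801 of 18050 had an unadjusted p under 0.05, and 0.0566% in males. Of the 34 genes, 0 in females and 2 in males had an unadjusted p under 0.05. Between GLR40 and GL40 2.27% of all genes passed in females and 0.00566% in males, and 2 and 4 of the 34 had an unadjusted p under 0.05. Between GL40 and WT00 the shares were 0.183% and 0.453%, and 2 and 3 of the 34 had an unadjusted p under 0.05. Log2 fold changes of the 34 genes ranged from -0.37 to 0.21 for FGL05, from -0.46 to 0.14 for MGL05, from -0.42 to 0.40 for FGLR40 and from -0.54 to 0.31 for MGLR40, each against GL40 of the same sex.

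GLR40 was also compared with GL00, whose ascorbate was removed at 3 months of age and not at 2 months as in GLR40. No GLR40 liver was taken before ascorbate was given back. In females 6 of the 34 genes passed, 3 higher and 3 lower in FGLR40, where 22% of all genes passed. In males 3 passed, all lower in MGLR40, where 9.13% passed. All genes gave 3005 higher and 957 lower in FGLR40, and 526 higher and 1087 lower in MGLR40. With median-ratio scaling all genes gave 1656 and 1641, and 872 and 647. Fn1 read 525, 613 and 536 TPM in FGLR40 (-0.80, adjusted p = 0.000543 in the test against FGL00) and 442, 411 and 446 TPM in MGLR40 (-0.77, adjusted p = 0.0162 in the test against MGL00). Col15a1 read 3.39, 1.91 and 4.34 TPM in FGLR40 (1.13, adjusted p = 0.00726) and 2.21, 1.30 and 1.41 TPM in MGLR40 (0.51, adjusted p = 0.145). Plod3 at 17.98, 18.1 and 16.4 TPM was higher than in FGL00 (0.63, adjusted p = 0.0170), and P4hb at 511, 547 and 532 TPM was lower (-0.30, adjusted p = 0.0270). Col15a1 and Fn1 in females held with each mouse left out. Plod3 was lost without any 1 of FGL00-2788, FGLR40-2716 and FGLR40-2717 (adjusted p up to 0.0842), P4hb without any 1 of 5 of the 6 mice, FGL00-2791 being the exception (up to 0.0915), and Fn1 in males without any 1 of MGL00-2784, MGL00-2787 and MGLR40-2829 (up to 0.0631).

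Col18a1 was lower in GLR40 than in GL00 in both sexes, by 0.30 in females and 0.26 in males on the log2 scale (adjusted p = 0.0430 and 0.0413). Col4a2 was lower in MGLR40, at 4.91, 6.21 and 6.09 TPM (-0.56, adjusted p = 0.00873). The Col18a1 calls were lost without any 1 of 5 of the 6 females, FGLR40-2717 being the exception (adjusted p up to 0.147), and without any 1 of the 6 males (up to 0.150). Col5a2 was higher in FGLR40 than in FGL00, at 1.20, 2.88 and 2.55 against 0.712, 0.801 and 1.12 TPM (0.74, adjusted p = 0.0100), and this call was lost without FGLR40-2717, the mouse with mesothelial markers (adjusted p = 0.0519). Serpinh1 read 4.73, 6.19 and 3.81 TPM in FGLR40 (0.25, adjusted p = 0.386 in the test against FGL00). These comparisons share the GL00 mice with the withdrawal comparison, so they are not independent of it. Without FGLR40-2717, FWT00-2643 and FGL40-2695 the female count was 2, Col15a1 and Fn1. It was 3 without any 1 of FGL00-2788, FGLR40-2716 and FGLR40-2717, and the male count was 1 without MGL00-2787 or MGLR40-2829. With median-ratio scaling 3 were higher and 4 lower in females, as Plod1 was gained as lower, and 2 were lower in males. Erythroid and neutrophil markers were lower in FGLR40 than in FGL00, at 453 to 534 and 5.50 to 10.3 TPM, with all 5 tested markers of each list lower, and 4 of 11 sinusoidal endothelial markers were higher and 1 was lower. The part of these cells was not tested.

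Against wild type, Fn1 was again higher and Col14a1 lower in both sexes. Between FGL00 and FWT00 9 of the 34 genes passed, 2 higher and 7 lower, where 25.1% of all genes passed, and between MGL00 and MWT00 5 passed, 4 higher and 1 lower, where 10.8% passed. Fn1 (0.82) and Plod1 (0.54) were the higher genes in females. Plod1 read 24.1, 26.1 and 25.6 TPM in FWT00, below every FGL00 mouse. The lower genes were Col3a1 (-1.17), Col15a1 (-1.12), Col14a1 (-1.01), Serpinh1 (-0.78), Loxl1 (-0.60), Plod3 (-0.59) and P4ha1 (-0.52). In males Fn1 (0.87), Col4a2 (0.50), P4hb (0.43) and Col18a1 (0.42) were higher and Col14a1 (-0.70) was lower. With median-ratio scaling the female count was 10, 4 higher and 6 lower, as Loxl1 was lost and Col18a1 and P4hb were gained. Without this scaling all genes gave 1396 higher and 3139 lower in FGL00, and 1186 and 714 in MGL00. With it they gave 2238 and 2322, and 940 and 1052. The female count was 5 without FGL00-2788 or FWT00-2642, 6 without the 3 females with pancreatic or mesothelial transcripts and 4 without FGL00-2788 as well. Each of the calls of Loxl1 (FGL00-2788, FGL00-2790, FWT00-2642, FWT00-2643), Plod3 and P4ha1 (FGL00-2788, FWT00-2642) was lost without any 1 of the mice named, with adjusted p up to 0.175, 0.0982 and 0.0885. In males Col14a1 was lost without any 1 of MGL00-2784, MGL00-2787, MWT00-2682 and MWT00-2683 (up to 0.1036) and Col4a2 without MGL00-2783 or MWT00-2677 (up to 0.0580).

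In the wild-type comparison the sinusoidal endothelial markers summed to 134 to 297 TPM in FGL00 and 308 to 329 TPM in FWT00, with 5 of 11 lower and 1 higher. Erythroid markers summed to 1933 to 3428 against 385 to 869.8 TPM and neutrophil markers to 44.2 to 85.8 against 6.68 to 7.71 TPM, with all 5 tested markers of each list higher in FGL00. In males Kupffer cell markers summed to 461 to 556 TPM in MGL00 and 303 to 421 TPM in MWT00, with 3 of 12 higher. Over all genes 25.1% passed in females and 10.8% in males. Portal and capsular fibroblast markers summed to 28.67 to 32.71 TPM in MGL00 against 35.03 to 40.74 TPM. Male neutrophil markers summed to 9.19 to 19.6 against 3.38 to 7.03 TPM. Mesothelial markers summed to 4.65 to 5.46 TPM in FGL00 against 6.42 to 31.8 TPM. Female pancreatic acinar markers summed to 11.7 to 14.96 against 26.6 to 35.98 TPM. None of these marker sums overlapped between the groups compared. Stellate cell sums overlapped in both sexes, and fibroblast, myofibroblast and Kupffer cell sums in females. The part of these cells in the 9 female and 5 male calls was not tested.

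Col3a1 was the only fibrillar chain among these calls. It read 11.2, 14.0 and 27.0 TPM in FWT00, the 27.0 TPM being mouse 2643 with its mesothelial and smooth muscle markers. The fold change was -1.17 (SE 0.37, adjusted p = 0.0298) with all mice and -0.82 without FWT00-2643 (adjusted p = 0.139), and the call was also lost without any 1 of FGL00-2788, FGL00-2790 and FWT00-2642. Those 2 mesothelium-rich livers held the highest Eln (elastin, the core of elastic fibres) and Col1a1 values of their groups. Eln read 1.75, 5.22 and 1.70 TPM in FGLR40, the second value being mouse 2717, and 2.47, 3.51 and 4.55 TPM in FWT00, the third being mouse 2643. Col1a1 read 1.34, 3.72 and 0.887 TPM in FGLR40 and 1.51, 2.79 and 5.62 TPM in FWT00 in the same order of mice. Mouse 2643 had the highest value of all 36 mice for Col1a1, Col1a2, Col3a1, Col6a1, Col6a2, Col6a3, Col14a1, Loxl1, Loxl2, Serpinh1 and Lum.

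**Figure D4:**
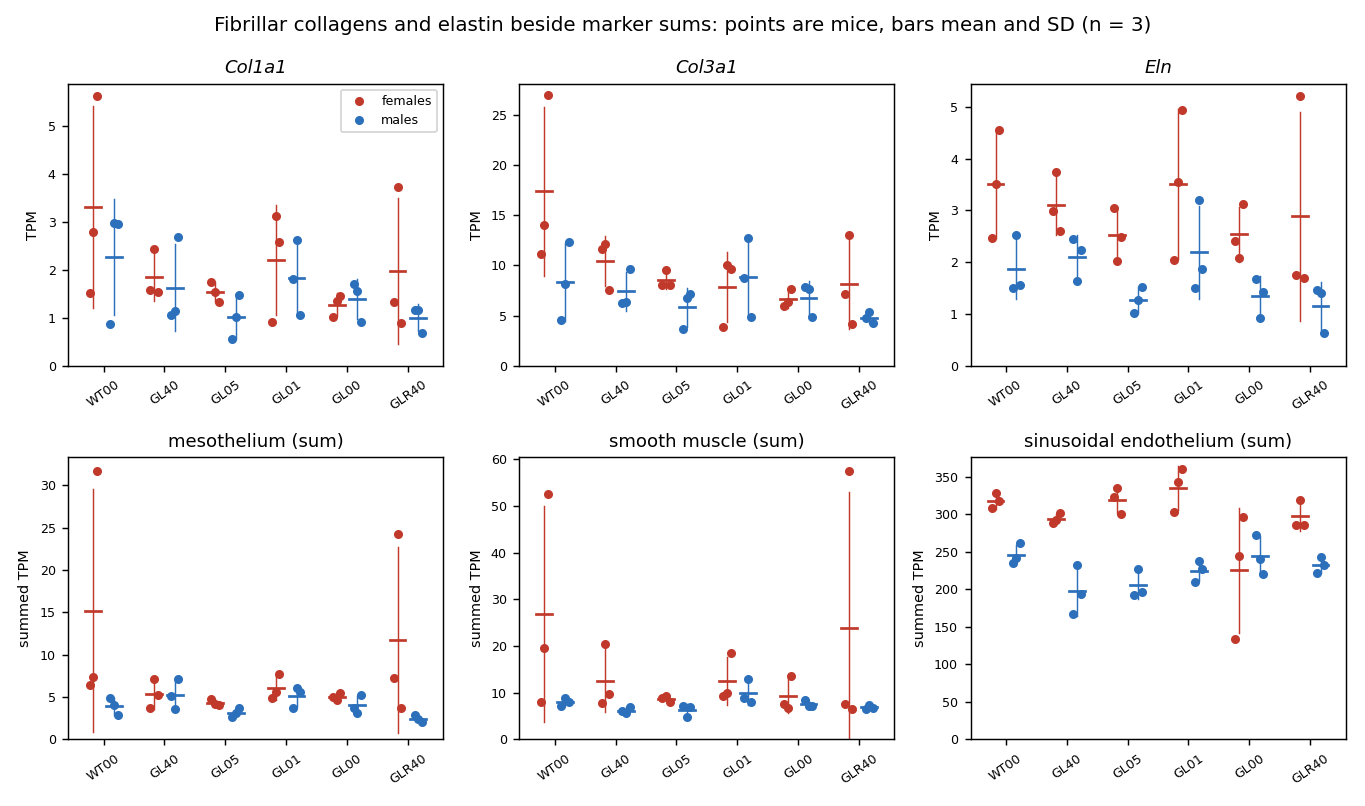
TPM of Col1a1, Col3a1 and Eln beside the summed TPM of mesothelial, smooth muscle and sinusoidal endothelial markers, by treatment, with females in red, males in blue, and mean and SD (n = 3) as bars. The high points of FGLR40 and FWT00 in Col1a1 and Eln belong to the 2 mice with 24.3 and 31.8 TPM of mesothelial markers, and the low endothelial point of FGL00 is mouse 2788 at 134 TPM.

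The F test of limma over the 6 treatments of a sex called 10 of the 34 genes in females, where 30.8% of all genes passed, and 4 in males, where 11.3% passed. The females' genes were Fn1, Col5a2, Plod1, Plod3, Mmp14, Col15a1, Col14a1, P4ha1, Serpinh1 and P4hb, and the males' were P4hb, Col18a1, Col4a2 and Fn1. Fn1 and P4hb were in both sets. The smallest adjusted p of limma was 0.000575 for Fn1 in females and 0.00682 for P4hb in males. The male count was 1 with median-ratio scaling and 8 with array weights.

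Most of these genes were higher in females. With treatment in the model, 24 of the 34 passed as higher in females and none as lower. Of all 17881 genes tested 44% passed, 6541 of them higher and 1319 lower in females. The female mean was above the male mean in each of the 6 treatments for 16 of the 34 genes, and in 5 treatments for 10. The median log2 fold change was 0.26 for the 34 genes and 0.07 for all genes. With median-ratio scaling, which centres the genes, 17 of the 34 passed, 15 higher and 2 lower (P4hb at -0.13 and Plod3 at -0.19), where all genes gave 3548 higher and 3588 lower.

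On the scale of TPM + 1 Dcn had the largest fold change, 0.75 (SE 0.06, adjusted p = 5.80e-11). With median-ratio scaling Col5a2 (0.65) lay above Dcn (0.62). Col5a2, a gene near 1 TPM, had a mean of 1.94 TPM in females and 0.692 TPM in males, where Dcn had 157 and 93.1 TPM. The lowest, median and highest values of Dcn were 124, 157 and 206 TPM in females and 63.4, 91.0 and 128 TPM in males. Of the females only FGL00-2788 lay below the highest male, and in 5 of the 6 treatments every female lay above every male. Mmp14 read 29.5, 41.5 and 55.8 TPM in females and 20.5, 26.6 and 37.8 TPM in males, with a fold change of 0.61 (SE 0.07, adjusted p = 6.29e-09), and in each of the 6 treatments every female lay above every male. Fn1 read 509.6, 589 and 1059 TPM in females and 328, 429 and 800.3 TPM in males, with a fold change of 0.46 (SE 0.06, adjusted p = 7.20e-07).

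**Figure D5:**
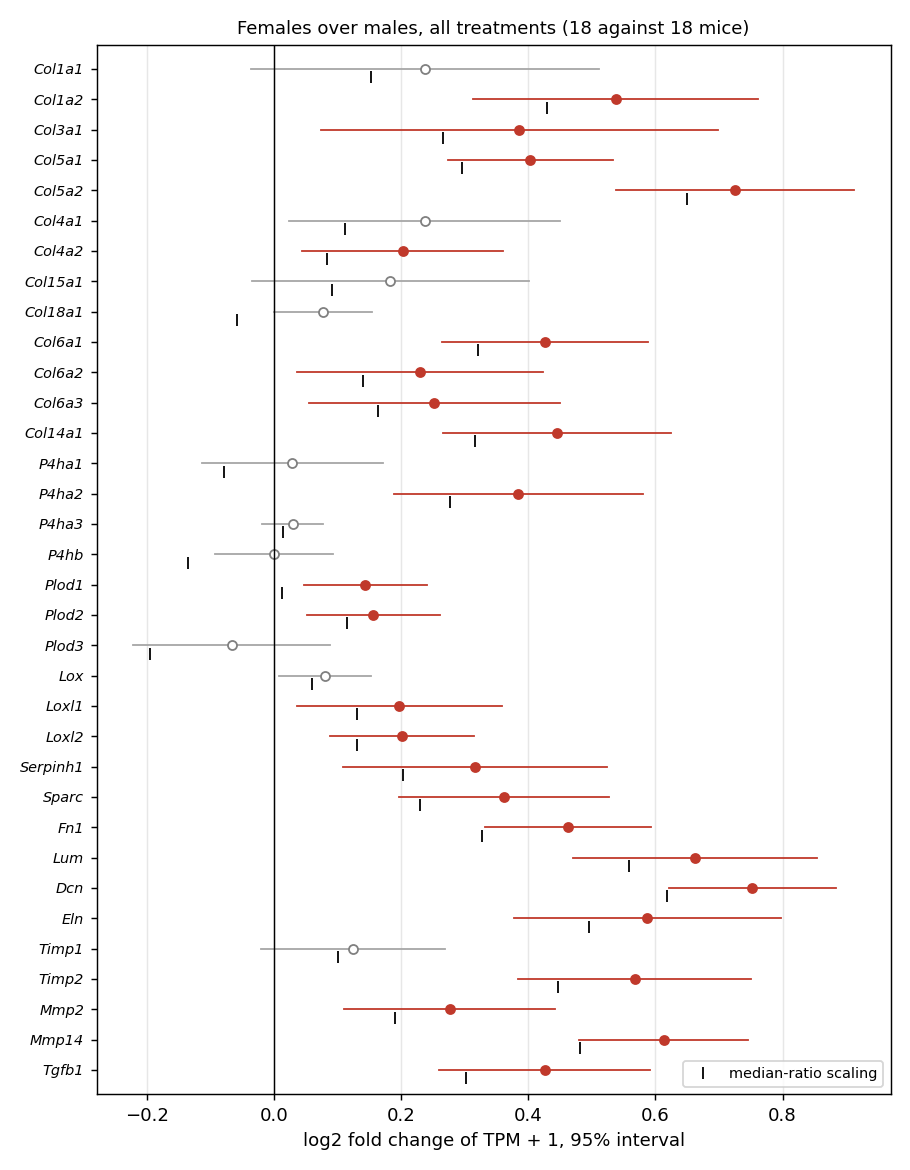
Log2 fold change of TPM + 1 between 18 females and 18 males, with treatment in the model, for the 34 genes with 95% intervals. Filled points passed the test, and black ticks give the value with median-ratio scaling. All 24 filled points lie right of 0, and P4hb, Col18a1, P4ha1 and Plod3 have ticks left of it.

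By role, 4 of 5 fibrillar chains, 4 of 4 type VI and fibril-associated chains, 6 of 6 chaperone and matrix proteins and 4 of 5 remodeling genes were higher in females. With median-ratio scaling these were 3 of 5, 2 of 4, 5 of 6 and 3 of 5, as Col3a1, Col6a2, Col6a3, Serpinh1 and Mmp2 were lost. Of the fibrillar chains Col5a2 had the largest fold change, 0.73 (SE 0.09, adjusted p = 1.64e-07), and Col1a1 did not pass at 0.24 (adjusted p = 0.153). Lum (lumican, a fibril proteoglycan), Eln and Timp2 (an inhibitor of metalloproteinases that also takes part in Mmp2 activation) had 0.66, 0.59 and 0.57. Sparc, a collagen-binding matricellular protein, had 0.36 and Mmp2, a gelatinase, 0.28.

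Both hydroxylase groups had small median sex differences, 0.03 for the prolyl 4-hydroxylase subunits and 0.14 for the lysyl hydroxylases, and -0.03 and 0.01 with median-ratio scaling. Of the 4 prolyl 4-hydroxylase subunits P4ha2 passed, with 3.27, 4.55 and 7.20 TPM in females and 2.23, 2.87 and 6.75 TPM in males and a fold change of 0.38 (SE 0.10, adjusted p = 0.00162), and P4hb was at 0.00 with an interval of -0.09 to 0.09. P4ha1 was at 0.03 (-0.11 to 0.17) and Plod3 at -0.07 (-0.22 to 0.09). Plod1 and Plod2 passed with 0.14 and 0.16, and both calls were lost with median-ratio scaling. Of the lysyl oxidases Loxl1 and Loxl2 passed, and Loxl1 was lost with that scaling. Of the basement membrane chains only Col4a2 passed (0.20, adjusted p = 0.0346), and it was lost too.

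Markers of several cell types were also higher in females, with 13 of 17 stellate cell, 8 of 11 fibroblast, 9 of 11 sinusoidal endothelial and 12 of 12 Kupffer cell markers higher in females and none lower. These counts are without median-ratio scaling, where 44% of all genes passed, 6541 higher and 1319 lower. Hepatocyte marker sums also had a higher median in females (88912 against 79626 TPM), and erythroid sums did not (625 against 633 TPM). Stellate cell markers summed to 125 to 198 TPM in females and 86.5 to 145 TPM in males. The part of these cells in the sex difference was not tested. Of the 24 calls, 19 held with each of the 36 mice left out, and Col3a1, Col4a2, Col6a2, Col6a3 and Loxl1 were lost without any 1 of 9 to 25 mice, FGLR40-2717 and FWT00-2643 among them for each gene (adjusted p up to 0.0907). Without the 3 females that carried pancreatic or mesothelial transcripts, these 5 and Plod2 were lost.

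Beyond the 34 genes, 117 other genes of collagen, matrix and TGF-beta pathways were counted. Between FGL00 and FGL40 18 of 116 tested passed (15.5%), 9 higher and 9 lower, below the 23.2% of all genes. Between MGL00 and MGL40 16 of 113 passed (14.2%), 14 higher and 2 lower, near the 12.3% of all genes. All genes gave 1726 higher and 2469 lower in females, and 1740 and 432 in males. With median-ratio scaling 22 pathway genes passed in females, 12 higher and 10 lower, and 15 in males, 9 higher and 6 lower. With that scaling 25.2% and 9.23% of all genes passed. Mmp12, the macrophage metalloelastase, read 3.69, 5.38 and 17.1 TPM in FGL00 against 0.838, 0.623 and 0.874 TPM (2.20, adjusted p = 0.00197) and 3.67, 2.87 and 2.17 TPM in MGL00 against 0.410, 0.567 and 0.772 TPM (1.29, adjusted p = 0.000374). Mmp15, a membrane-type metalloproteinase, fell in both sexes (-1.23 and -0.74). The interaction with sex did not pass for either gene (adjusted p = 0.234 and 0.230).

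The other pathway genes named for withdrawal passed in 1 sex, and the difference between the sexes was tested for each with the interaction. In females Mmp19 (-1.40, and -0.04 in males), Creld2 (an endoplasmic reticulum stress protein, -1.23, and 0.15 in males) and Smad7 (an inhibitor of TGF-beta signaling, -1.04, and 0.09 in males) were lower. Reck (an inhibitor of metalloproteinases, 0.83, and -0.26 in males) and Tgfbr1 (a TGF-beta receptor, 0.67, and 0.09 in males) were higher in FGL00. Of 115 pathway genes tested 14 passed the interaction (12.2%), where 13.6% of all genes passed. The interaction passed for Mmp19 (adjusted p = 0.000111), Reck (0.00183), Tgfbr1 (0.00850) and Smad7 (0.01996) and not for Creld2 (0.0529). That of Smad7 was lost without FGL00-2790 or MGL00-2783 (adjusted p up to 0.0542) and with median-ratio scaling.

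In males Col27a1, a fibrillar chain expressed more in males, was lower at 5.76, 5.75 and 3.30 TPM in MGL00 against 17.98, 13.6 and 17.996 TPM in MGL40 (-1.58, SE 0.29, adjusted p = 0.00333). In females it read 3.23, 3.47 and 3.10 TPM in FGL00 against 4.90, 4.61 and 4.86 TPM in FGL40 (-0.44, adjusted p = 0.126), also without overlap. Its interaction of 1.14 (adjusted p = 0.0364) was lost without any 1 of 9 of the 12 mice, MGL00-2783, MGL00-2784 and MGL40-2691 being the exceptions (adjusted p up to 0.112), and also with no filter or a pseudocount of 0.1. Skil (a repressor of Smad signaling, 0.68, and 0.38 in females), Nid1 (nidogen of basement membranes, 0.67, and 0.47 in females), Emilin1 (0.66, and 0.09 in females) and Postn (periostin, 0.63, and 0.43 in females) were higher in MGL00. Nid1 read 6.37, 8.81 and 11.8 TPM in FGL00 against 5.89, 6.02 and 6.26 TPM in FGL40, without overlap (adjusted p = 0.0667). The interaction passed for none of these 4 genes (adjusted p from 0.0560 for Emilin1 to 0.709 for Postn). With median-ratio scaling Nid1 and Postn passed in females, and Postn did not in males. In males the Mmp15 call was lost without MGL40-2690 (adjusted p = 0.0510), Nid1 without MGL00-2787 or MGL40-2690 (adjusted p up to 0.0590), and Postn without any 1 of MGL00-2783, MGL00-2787, MGL40-2690 and MGL40-2691 (adjusted p up to 0.208).

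Of the 115 pathway genes tested between the sexes 70 passed (60.9%), 64 higher and 6 lower in females, where 44% of all genes passed. With median-ratio scaling 52 passed (45.2%), 44 higher and 8 lower, where 39.9% of all genes passed. Loxl4, a lysyl oxidase, had the largest female excess (1.27), and Postn (0.77) and Ecm1 (0.69) were also higher. The largest male excess was Col5a3, a chain of type V collagen (-1.63), followed by Col27a1 (-1.15), Mmp15 (-0.41) and Mia3, which helps procollagen leave the endoplasmic reticulum (-0.22). Col5a2, higher in females, and Col5a3, higher in males, are chains of the same collagen type.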

How the data were processed

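Whole-liver RNA of 36 mice, 12 groups of 3, was sequenced. The authors trimmed reads with fastp 0.20.0 and quantified them with kallisto 0.46.2 against the Ensembl 104 mouse transcriptome, and deposited TPM per gene and mouse. How transcripts were added up into genes was not given in the sources used here. TPM keeps no depth, so no counting error is given, and a gene that takes a larger share of a library lowers the TPM of the others.

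Groups came from the labels of the mice. The 34 genes and all gene and marker lists were chosen with earlier results of these data known. Every one of the 34 is described. Of 117 pathway genes, those called between GL00 and GL40 with the largest fold changes were named, at most 8 per sex, and at most 4 per direction between the sexes, except that 1 of these is not reported here.

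log2(TPM + 1) was fitted in limma 3.58.1 (R 4.3.3, statmod 1.5.0) with trend and robust empirical Bayes, 1 mean per group over the 18 mice of a sex, for genes above 0 TPM in at least 13 of them. The sex comparison (treatment as covariate), the interaction and the means of both sexes used all 36 mice and genes above 0 TPM in at least 25. P-values were adjusted by Benjamini-Hochberg over all genes tested, and 0.05 was the threshold. The labels name 36 separate mice and no litters or cages. The fit was tested on simulated data with independent normal noise and with genes raised in FGL00 only. That setting is simpler than these data, where genes differ in both directions and single mice differ in marker content. Alternatives were median-ratio scaling, a pseudocount of 0.1, no filter, at least 1 TPM in 3 mice, a ratio of mean TPM above 2 or under 0.5 as well, array weights, only the 2 groups compared, and each mouse left out. Leaving out FGL40-2695, FGLR40-2717 and FWT00-2643, with and without FGL00-2788, was chosen after the data were seen. Figures were drawn with matplotlib 3.10.9 in Python 3.11.15.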

Additional observations from a re-analysis of the deposited data

Results flagged for a closer look

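For P4ha1 and Serpinh1 the difference between GL00 and GL40 itself differed between the sexes in limma's interaction contrast. The female log2 fold change minus the male one was -0.63 for P4ha1 (adjusted p = 0.0375) and -0.85 for Serpinh1 (adjusted p = 0.0413). All 3 FGL00 mice lay below all 3 FGL40 mice for both genes, and the male groups overlapped. The P4ha1 call was lost without any 1 of 7 of the 12 mice and the Serpinh1 call without any 1 of 9. FGL00-2788, with 134 TPM of sinusoidal endothelial and 125 TPM of stellate cell markers, was among those mice for both genes. The part of its cell content in these values was not tested. Both calls were also lost with no filter on low values and with median-ratio scaling (adjusted p = 0.1165 and 0.101). Of all 17881 genes tested 13.6% passed this contrast, 426 with a positive and 2002 with a negative value, and of 115 pathway genes 14 (12.2%). The contrast passed for 5 of the pathway genes named for withdrawal, with -1.37 for Mmp19, -1.13 for Smad7, 0.58 for Tgfbr1, 1.10 for Reck and 1.14 for Col27a1. Those of Smad7 and Col27a1 were lost without any 1 of 2 and of 9 of the 12 mice, with adjusted p up to 0.0542 and 0.112.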

How the results depend on the processing

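No called value changed sign under any alternative run. The counts below are genes of the 34 called.

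Requiring a ratio of mean TPM above 2 or under 0.5 left 1 for FGL00 over FGL40, 1 for MGL00 over MGL40, 1 for FGL01 over FGL40, 2 for FGLR40 over FGL00, 0 for MGLR40 over MGL00, 4 for FGL00 over FWT00, 0 for MGL00 over MWT00, 3 and 0 for any difference in females and males, 1 between the sexes, 0 for the interaction, and 1 each for GL00 and GL01 over GL40 in both sexes. Median-ratio scaling gave 1 for any difference in males, 1 for the interaction and 4 for GL01 over GL40 in both sexes, and kept 88 of 115 single-gene calls. No filter gave 0 for the interaction, and 1 TPM in 3 mice gave 5 for MGLR40 over MGL00 and 7 for any difference in males. Array weights gave 11 for FGL01 over FGL40, 1 for FGLR40 over FGL40, 5 for MGLR40 over MGL00 and 8 for any difference in males. Without the 3 mice with pancreatic or mesothelial transcripts the counts were 2 for FGLR40 over FGL00 and 1 for the interaction. Without FGL00-2788 as well they were 3 for FGL00 over FGL40, 4 for FGL00 over FWT00, 2 for FGLR40 over FGL00 and 0 for the interaction.

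With each mouse left out in turn the counts ranged from 2 to 5 for FGL00 over FGL40, 5 to 6 for MGL00 over MGL40, 3 to 5 for FGL01 over FGL40, 3 to 6 for FGLR40 over FGL00, 1 to 2 for MGLR40 over MGL00, 5 to 11 for FGL00 over FWT00, 19 to 26 between the sexes, 0 to 3 for the interaction, and 8 to 11 and 5 to 10 for GL00 and GL01 over GL40 in both sexes. The cause of these shifts was not tested. No paired analysis was possible because the groups share no replicate numbers. With 3 mice a group and no read counts, small changes of genes near 1 TPM could not be resolved.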
